A study of Mus musculus with 12 samples.

Results

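The Nodal pathway was described through 8 genes in mouse embryonic stem cells: the ligand Nodal, the antagonists Lefty1 and Lefty2, the co-receptor Tdgf1 (Cripto), the receptor Acvr2b, the signal transducers Smad2 and Smad3, and the transcriptional repressor Skil (SnoN). Members were taken by GENCODE gene name, and all 8 had rows, out of 34079 genes with an exonic row in the whole series. They held 26 of their 28 GENCODE M1 transcripts, with an exonic and an intronic row for each, and 11 of the 624 values in these 52 rows were missing. The cells were the DTCM23/49 XY line, grown with serum and LIF on gelatin, from a single culture that was divided into 2 and passaged 8 times. RNA was labeled with 200 µM 4-thiouridine (4sU), a uridine analog built into RNA during transcription, for 15, 30 or 60 min, and the biotinylated (labeled, newly transcribed) fraction and the total RNA were sequenced. Each of the 6 groups (labeled or total at each time) held replicates 1 and 2, so there were 12 libraries and no unlabeled control among them. Both replicates descend from the same culture, so the p-values measure the spread between these sister cultures and their preparation.

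Nodal is a TGF-beta family ligand that signals through activin receptors, and Cripto is the co-receptor that it needs. The receptors phosphorylate Smad2 and Smad3, which enter the nucleus with Smad4 and switch on targets that include Nodal itself and the Lefty genes. The Lefty proteins are diverging TGF-beta relatives that block Nodal and its co-receptor, and Skil binds the Smads and represses their targets, so that the pathway is known for holding both its activator and its inhibitors in 1 feedback circuit in embryonic stem cells and in the early embryo.

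The values were abundances per transcript length, scaled by the authors to the same sum in every library, in arbitrary units (a.u.). The exonic and the intronic rows of a gene were each summed over its transcripts. All 7 of the 8 embryonic stem cell markers that had a row lay above 20 a.u. on average, and their summed level ran from 12757 to 23544 a.u. over the 12 libraries, with Dppa5a the most abundant (mean 7684 a.u.). Of 6 fibroblast markers, Col3a1, Dcn and Postn had no value in any library (the table holds only values above 1, and missing ones were counted as 0), Col1a1 and Col1a2 stayed at or below 4.55 a.u., and Thy1 was the most abundant (mean 33.7 a.u.), with a sum of 23.9 to 55.8 a.u. over the list. Of 5 primitive endoderm markers, Gata6, Sox17 and Pdgfra did not exceed 2.32 a.u., Gata4 had 2.55 to 21.7 a.u., and Dab2 was the most abundant (mean 38.1 a.u.), with a sum of 23.8 to 72.3 a.u. The trophectoderm marker Cdx2 had no value in any library, and the 4 markers of that list summed to between 6.5 and 21.1 a.u. Both neural markers with a row, Pax6 and Nes, had means over 20 a.u., and their sum ran from 43.6 to 215.8 a.u. By these lists the libraries carried the markers of the labelled cell type.

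Libraries of the labeled fraction did not resemble each other equally. Introns made up 14.8% of the summed signal in labeled 15 min replicate 1 and 13.9% in labeled 60 min replicate 1. They made up 9.35% and 10.8% in the labeled 30 min replicates, but 7.24% in labeled 15 min replicate 2 and 6.99% in labeled 60 min replicate 2. The total libraries lay between 6.53% and 7.41%, so these last 2 labeled libraries lay within the range of total RNA. Pearson's r across 25318 genes was 0.861 between the labeled 15 min replicates and 0.852 between those at 60 min, against 0.940 at 30 min and 0.923 to 0.939 within total RNA. The labeled-to-total differences below are therefore also given without the labeled 15 and 60 min libraries numbered 1 and, in turn, without those numbered 2. Whether the purification of newly made RNA differed between these libraries was not tested.

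Lefty1 and Lefty2 are neighbouring copies of 1 gene. In GENCODE M1 on mm9 Lefty2 lies at chr1:182823239-182829234 and Lefty1 at chr1:182865153-182868531, both on the plus strand and 35918 bases apart. Their coding sequences of 1107 bases are identical at 1017 positions (91.9%). Reads were 100 bases long, and 73 of the 1521 windows of that length in Lefty1-001 (4.80%) occur unchanged in Lefty2-001, so that the split of reads between the pair is uncertain there. Both also share a stretch in their 3′ UTRs. It holds AGCACTT, the complement of the seed (bases 2 to 8) of the miR-290 and miR-302 families, miRNAs that are abundant in mouse embryonic stem cells and for which Lefty genes are known targets. The sites, from the GENCODE M1 transcripts with the seed match in capitals, and RefSeq mature miRNAs (GRCm38.p6) with the seed in capitals, are shown because the pair shared them.
Lefty1-001, 3′ UTR base 238 of 425: actgcactgtatgcgaAGCACTTacatgt
Lefty2-001, 3′ UTR base 104 of 1290: tccatcacccagtttaAGCACTTacatgg
mmu-miR-294-3p: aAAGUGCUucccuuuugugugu
mmu-miR-291a-3p: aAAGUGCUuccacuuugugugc
mmu-miR-295-3p: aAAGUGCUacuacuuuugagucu
mmu-miR-302b-3p: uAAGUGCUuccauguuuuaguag
mmu-miR-302d-3p: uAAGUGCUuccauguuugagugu
The 5 miRNAs differ after their shared seed, and the Lefty sites match each other over 13 bases. The 7 letters, searched on the transcript strand, occur in 4.38% of the 5097 annotated 3′ UTRs similar in length to that of Lefty1, and in 13.9% of the 5936 similar in length to that of Lefty2. They do not occur in the 3′ UTRs of Nodal-001, Tdgf1-201 or Skil-201, as in most of similar length (7.45%, 11.9% and 36.8% hold them), nor in the 40 bases annotated for Acvr2b-201, where 0.487% of 3′ UTRs of similar length hold them. The 3′ UTRs of Smad2 and Smad3 are not analysed here. A match of these letters is a description of the sequence, and no miRNA was measured in these libraries.

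Levels in total RNA spanned more than 2 orders of magnitude. Tdgf1 was by far the most abundant member, with a lowest value of 4721, a median of 5034 and a highest of 6362 a.u. over the 6 total libraries. Its only transcript, Tdgf1-201 (gene at mm9 chr9:110842114-110848662, minus strand, 6 exons), stood at the 98.2 percentile of 23973 genes ranked by their most abundant transcript. Skil followed with 1475, 1544 and 1638 a.u. and Smad2 with 1273, 1334 and 1469 a.u. The antagonists were next, Lefty2 at 107.9, 163.3 and 233.9 a.u. and Lefty1 at 74.2, 126.8 and 140.6 a.u. Nodal (mm9 chr10:60880720-60888086, plus strand, 3 exons) had 79.8, 88.4 and 137.0 a.u. Smad3 (mm9 chr9:63494574-63605801, minus strand) had 61.4, 72.5 and 85.5 a.u., and Acvr2b (mm9 chr9:119311562-119342619, plus strand) had the lowest level, 34.0, 40.9 and 58.5 a.u. In bulk RNA, fewer cells that express a gene and less RNA per cell cannot be told apart.

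Neighbours in this order were compared within each total library by an exact two-sided sign-flip permutation test over the 6 libraries, adjusted over the 7 neighbour pairs, where the smallest possible p is 0.0312. Tdgf1 exceeded Skil 3.37-fold, Skil exceeded Smad2 1.15-fold, Smad2 exceeded Lefty2 8.34-fold, Lefty2 exceeded Lefty1 1.41-fold and Smad3 exceeded Acvr2b 1.65-fold, each in 6 of 6 libraries (each adjusted p = 0.0438, permutation). Lefty1 and Nodal did not differ beyond their spread, with Lefty1 higher in 4 of 6 libraries (log2 difference 0.26 ± 0.64, SD, adjusted p = 0.375, permutation). Nodal and Smad3 did not pass either, with Nodal higher in 5 of 6 libraries (0.37 ± 0.41, SD, adjusted p = 0.0729, permutation). The test treats the 6 libraries as independent, although they come from the 2 parts of 1 divided culture.

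These sums grew with the number of annotated transcripts. Among genes grouped by their protein-coding transcripts, the median sum rose from 102.8 a.u. with 1 transcript to 429.3 a.u. with 7, while the median of the most abundant transcript was 102.8 and 104.5 a.u. Skil has 6 transcripts and Smad2 has 7, and their levels by the most abundant transcript were 367 ± 21.0 a.u. (Skil-201) and 278 ± 20.8 a.u. (Smad2-006) in total RNA (SD, n = 6). By that measure Tdgf1 exceeded Skil 14.2-fold and Smad2 exceeded Lefty2 1.82-fold. Nodal and Lefty1 changed places by their means (log2 difference 0.11 ± 0.56, SD), though Nodal was higher in only 2 of 6 libraries. The other ranks were as before, but Smad3 exceeded Acvr2b in 5 of 6 libraries in place of 6 (1.44-fold). In 4 of the 7 pairs all 6 libraries had the same order, the most this test can show, but at least 5 such pairs are needed before any can pass the adjustment (lowest adjusted p = 0.0547, permutation), so the threshold says nothing about these pairs. Smad2-006 and Smad3-004 are short transcript models of 628 and 429 exonic bases, so their values stand for a piece of each gene.

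**Figure D1:**
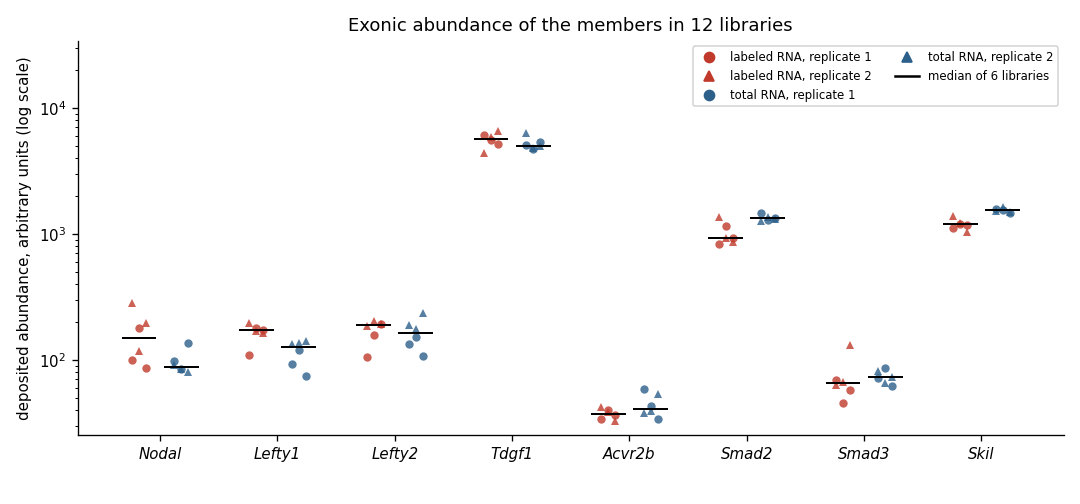
Exonic abundance (deposited arbitrary units, log scale) of the 8 members, summed over transcripts, in each library. Red is labeled and blue total RNA, circles are replicate 1 and triangles replicate 2, times run from 15 to 60 min left to right within a group, and bars are medians of 6 libraries. The 6 labeled Skil values lie below the 6 total values, and labeled Nodal values spread from 86.5 to 283.4 a.u.

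Labeled RNA was set against total RNA to ask which transcripts were over- or under-represented in what was made within the labeling time. For exons the fit (limma, labeling time as a covariate) covered 25318 features, of which 13977 were genes and 11341 were single transcripts that no gene of the GENCODE M1 annotation holds. Shares and medians over all genes below count both kinds. There was a median difference of -0.01 on the log2 scale, and 15.9% of the features were called at an adjusted p under 0.05. Among annotated genes 4.87% were called higher and 10.9% lower. Of the 8 members, 0 were called higher (background 6.38%) and 2, Skil and Smad2, were called lower (background 9.49%). In the plot of log2 differences these are the filled points left of the zero line.

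Skil, the Smad-binding repressor (mm9 chr3:30993980-31021499, plus strand), had 1031, 1195 and 1386 a.u. in labeled RNA (lowest, median, highest) and 1475 to 1638 a.u. in total RNA. The groups did not overlap, as was so for 6.32% of all genes tested with labeled below total. It fell by 0.38 ± 0.09 (SE) on the log2 scale (adjusted p = 0.0143, limma), and labeled was lower in all 6 pairs of the same time and replicate. Among its transcripts Skil-001 (-0.68, adjusted p = 0.00145) and Skil-201 (-0.53, adjusted p = 0.00406) passed the test, in a fit where 12% of 45537 transcripts were called lower. The other 4 Skil transcripts had differences of -0.16 to -0.30 and did not pass. The call held in 12 of 12 fits that left out a library (highest adjusted p = 0.0413). After quantile normalization the difference was -0.22 (adjusted p = 0.0442), and with all libraries numbered 1 or all numbered 2 left out it was -0.37 and -0.39 (adjusted p = 0.560 and 0.277), in fits that called 0 and 5 features. With each labeled library paired with the total library of its time and replicate number (the paired block), the difference was the same, with an adjusted p of 0.0568, and the call was lost. With the replicate number alone as a block it was 0.0230. Without the labeled 15 and 60 min libraries numbered 1 the difference was -0.36 (adjusted p = 0.0269), and without those numbered 2 it was -0.40 (adjusted p = 0.00466).

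Smad2, the signal transducer, had 833, 929 and 1370 a.u. in labeled and 1273, 1334 and 1469 a.u. in total RNA, so the groups overlapped through labeled 15 min replicate 2. It was lower in labeled RNA, with a difference of -0.43 ± 0.13 (SE, adjusted p = 0.0410, limma), in 5 of 6 pairs. Of its 7 transcripts, 3 passed on their own (Smad2-003, Smad2-005 and Smad2-007, -0.43 to -0.57). The call depended on the setting. With the same difference the adjusted p was 0.0923 with the paired block and 0.0546 with the replicate number alone as a block. With no filter on low values it was 0.0624 at that difference, and with a pseudocount of 20 it was 0.0419 (-0.42). After quantile normalization the difference was -0.28 (adjusted p = 0.0784). The gene passed in 1 of the 12 fits that left out a single library (without labeled 15 min replicate 2, adjusted p = 0.00631). The difference was -0.34 (adjusted p = 0.100) without the labeled 15 and 60 min libraries numbered 1, and -0.51 (adjusted p = 0.00779) without those numbered 2.

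Nodal had 99.8 and 283.4 a.u. in the labeled 15 min replicates 1 and 2, 178.1 and 118.3 at 30 min, and 86.5 and 195.3 at 60 min. In total RNA the values were 98.7 and 91.5 at 15 min, 85.3 and 83.9 at 30 min, and 137.0 and 79.8 at 60 min. Labeled values lay above total ones in 5 of 6 pairs, and the groups overlapped through the replicate 1 libraries. The difference of 0.63 ± 0.28 (SE) did not pass (adjusted p = 0.150, limma). It was 1.03 (adjusted p = 0.0173) without the labeled 15 and 60 min libraries numbered 1, and 0.27 (adjusted p = 0.400) without those numbered 2, so the value moved with these libraries.

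The antagonists differed in size but neither passed in the exons. Lefty1 had 109.9, 171.9 and 196.4 a.u. in labeled RNA and was higher than total in 6 of 6 pairs (0.52 ± 0.19, SE, adjusted p = 0.0910, limma), with overlapping groups. Lefty2 had 105.8, 188.7 and 202.9 a.u. in labeled RNA, and a difference of 0.07 ± 0.21 (SE, adjusted p = 0.838). Without the labeled 15 and 60 min libraries numbered 1 these differences were 0.61 and 0.19 (adjusted p = 0.0699 and 0.573), and without those numbered 2 they were 0.40 and -0.03 (adjusted p = 0.183 and 0.938). Each has a second, retained-intron transcript whose exonic row covers intron sequence. The protein-coding transcripts alone gave 0.53 for Lefty1-001 (adjusted p = 0.0561) and 0.02 for Lefty2-001 (adjusted p = 0.965).

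Tdgf1, Smad3 and Acvr2b did not pass. Tdgf1 had 4394, 5697 and 6577 a.u. in labeled RNA and a difference of 0.09 ± 0.12 (SE, adjusted p = 0.619, limma). Acvr2b had 32.7, 37.4 and 42.5 a.u. (-0.22 ± 0.18, SE, adjusted p = 0.413). Smad3 had 45.2, 65.1 and 130.0 a.u. (-0.09 ± 0.22, SE, adjusted p = 0.807), where the highest value belonged to labeled 60 min replicate 2. Neither leaving out the labeled 15 and 60 min libraries numbered 1 (0.10, -0.18 and 0.01 for Tdgf1, Acvr2b and Smad3) nor those numbered 2 (0.13, -0.22 and -0.29) brought one of these 3 genes past the threshold. After quantile normalization the differences were 0.15, -0.43 and -0.23 (adjusted p = 0.458, 0.138 and 0.583). The order of labeled-to-total ratios ran from Nodal, Lefty1, Tdgf1, Lefty2, Smad3, Acvr2b and Skil to Smad2. The exact sign-flip permutation test gave an adjusted p of 0.938 for each of the 7 pairs of neighbours, but it can pass only where at least 5 pairs reach the smallest p, so it does not show that neighbours were alike.

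**Figure D2:**
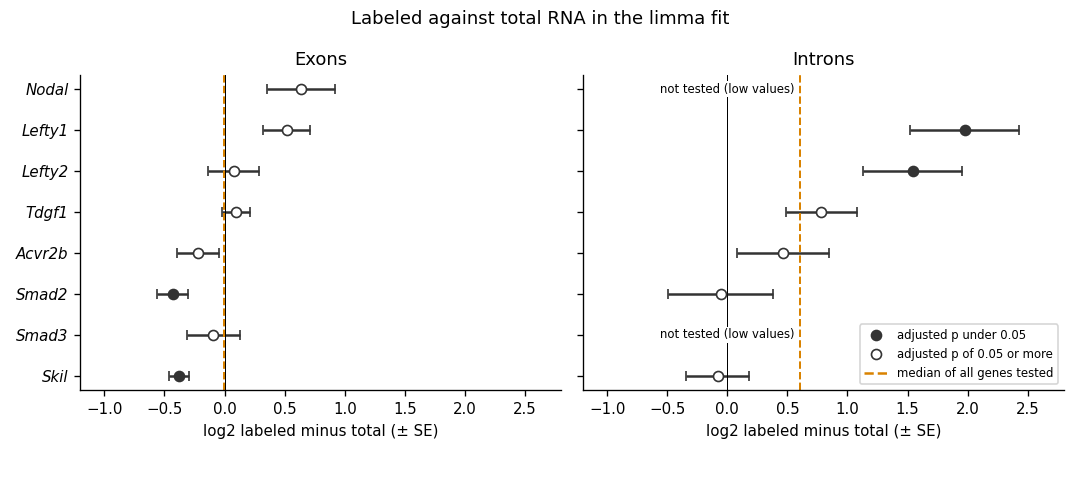
Difference between labeled and total RNA (log2, x axis) for each member in the limma fits, with bars for the SE. Filled points passed an adjusted p of 0.05 and the dashed line is the median of all genes tested, -0.01 for exons and 0.60 for introns. Lefty1 and Lefty2 lie right of the intronic median, at 1.98 and 1.54.

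Introns mark RNA that has not been spliced yet, so their abundance in labeled RNA follows precursors. For introns 12621 genes were tested, the median difference was 0.60, and 28.7% of genes were called, 28.4% higher and 0.317% lower (31.2% and 0.307% of the 9117 annotated genes among them). This split followed the scaling: after quantile normalization 1451 genes were called higher and 1365 lower, against 3585 and 40. Of the 6 members above the filter of 20 a.u., 2 were called higher, Lefty1 and Lefty2, and 0 were called lower. Both passed the filter through the labeled libraries (means of 45.1 and 51.5 a.u., both under 20 a.u. in total RNA), so the count over the members that passed is no support. Acvr2b passed in the same way (25.1 a.u. in labeled and 15.5 a.u. in total RNA). Intronic rows were summed over transcripts too, so a gene with more transcripts reaches the filter more easily. No single intronic row of Lefty2 or Acvr2b reached the filter, and Nodal, which fell below it, has 1 intronic row. With no filter the adjusted p was 0.00955 for Lefty1 and 0.0203 for Lefty2.

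Lefty1 introns had 79.4 and 21.3 a.u. in the labeled 15 min replicates 1 and 2, 43.7 and 50.6 at 30 min, and 51.3 and 24.5 at 60 min. In total RNA they had 19.2 and 18.7 a.u. at 15 min, 3.08 and 15.6 at 30 min, and 10.9 and 3.65 at 60 min. No labeled value lay below any total value, as was so for 15.7% of all genes tested. The difference was 1.98 ± 0.45 (SE, adjusted p = 0.00655, limma), 3.94-fold. Lefty2 introns had 19.2, 45.7 and 97.6 a.u. (lowest, median, highest) in labeled and 6.90, 15.8 and 27.9 a.u. in total RNA, with labeled higher in 6 of 6 pairs though the groups overlapped. The difference was 1.54 ± 0.41 (SE, adjusted p = 0.0142), 2.91-fold.

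Both calls of the Lefty pair held in each of the 12 fits that left out a library, where the highest adjusted p was 0.0233 for Lefty1 and 0.0463 for Lefty2. They held without the labeled 15 and 60 min libraries numbered 1 (1.65 and 0.98, adjusted p = 0.0150 and 0.0252), where the median of all genes was 0.19 and 3135 were called higher. Without those numbered 2 the differences were 2.47 and 1.98 (adjusted p = 0.000231 and 0.000606), but there the median of all genes was 1.01 and 10617 of 12621 were called higher, so a call in that fit says little about the pair. After quantile normalization, which brought the median of all genes to -0.02, the differences were 1.19 (adjusted p = 0.0149) and 0.93 (adjusted p = 0.0278). Scaled to an intronic sum of 1000000 in each library, the median of Lefty1 introns was 20.9 in labeled and 8.99 in total libraries, and that of Lefty2 introns was 22.7 and 10.8. The introns of these genes are short, 1759 bases in Lefty1-001 and 3523 in Lefty2-001, and the intronic row of Lefty1-002 was missing in 4 of 6 total libraries and 1 of 6 labeled ones, counted here as 0. How alike the introns of the pair are in sequence was not examined. The split of intronic reads between the 2 genes is therefore not known, and their calls may not be independent.

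**Figure D3:**
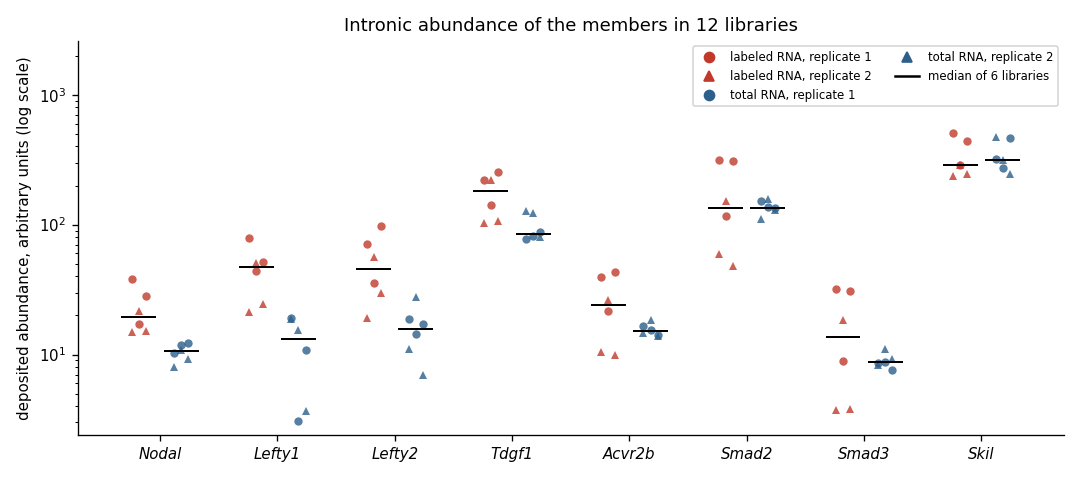
Intronic abundance (deposited arbitrary units, log scale) of the 8 members in each library, with colours, symbols and bars as for exons. The labeled 15 and 60 min libraries of replicate 1 lie at the top and those of replicate 2 at the bottom of most labeled groups, and every labeled value of Lefty1 and Nodal lies above their total values.

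The remaining members varied with the library. Tdgf1 introns had 102.5, 181.0 and 254.6 a.u. in labeled and 78.1, 85.2 and 127.0 a.u. in total RNA, higher in 5 of 6 pairs (0.78 ± 0.29, SE, adjusted p = 0.0590, limma, 0.0409 with the paired block and 0.0540 with the replicate number alone as a block). Without the labeled 15 min or the labeled 60 min replicate 2 library the adjusted p was 0.0172 or 0.0195. Without both it was 0.00118 (1.12, close to the median of 1.01 over all genes in that fit), and without the labeled 15 and 60 min libraries numbered 1 it was 0.138 (0.45). After quantile normalization the difference was 0.15 (adjusted p = 0.565). Nodal introns fell below the filter, with 15.0, 19.4 and 38.4 a.u. in labeled and 8.00, 10.6 and 12.3 a.u. in total RNA and no overlap, as was so with labeled above total for 15.7% of the genes above the filter. With no filter their difference was 0.98 (adjusted p = 0.0337), in a fit with a median of 0.56 that called 6405 genes higher.

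Smad2 introns had 312.9 and 307.0 a.u. in labeled 15 and 60 min replicate 1, 59.0 and 48.4 a.u. in the replicate 2 libraries of these times, and 110.7 to 156.6 a.u. in total RNA. Their difference was -0.06 ± 0.44 (SE, adjusted p = 0.932, limma). It was 0.65 (adjusted p = 0.0347) without the labeled 15 and 60 min libraries numbered 2, and -0.78 (adjusted p = 0.0200) without those numbered 1, beside medians of 1.01 and 0.19 over all genes in these fits. Smad2 introns lay below the median of all genes in both, as they did with all 12 libraries (0.60) and after quantile normalization (-0.65, against -0.02). Skil introns had 234.8, 287.6 and 506.1 a.u. in labeled and 246.6, 316.9 and 474.1 a.u. in total RNA (-0.08 ± 0.26, SE, adjusted p = 0.828), and -0.62 (adjusted p = 0.0305) after quantile normalization. They were -0.35 and 0.20 without the labeled 15 and 60 min libraries numbered 1 and 2 (adjusted p = 0.235 and 0.376). Of the mean of 348 a.u. in total RNA, 253 a.u. lay in the row of Skil-005, and the other 5 rows had means of 11.5 to 23.2 a.u. Acvr2b introns ran from 10.0 to 42.9 a.u. in labeled and from 13.9 to 18.4 a.u. in total RNA (0.46 ± 0.38, SE, adjusted p = 0.360), and the difference was -0.08 (adjusted p = 0.818) and 1.01 (adjusted p = 0.00239) without the labeled 15 and 60 min libraries numbered 1 and 2, the latter equal to the median of all genes in that fit, which Acvr2b entered through its labeled libraries. Smad3 introns were below the filter and ran from 3.76 to 32.2 a.u. in labeled and from 7.64 to 11.1 a.u. in total RNA.

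**Figure D4:**
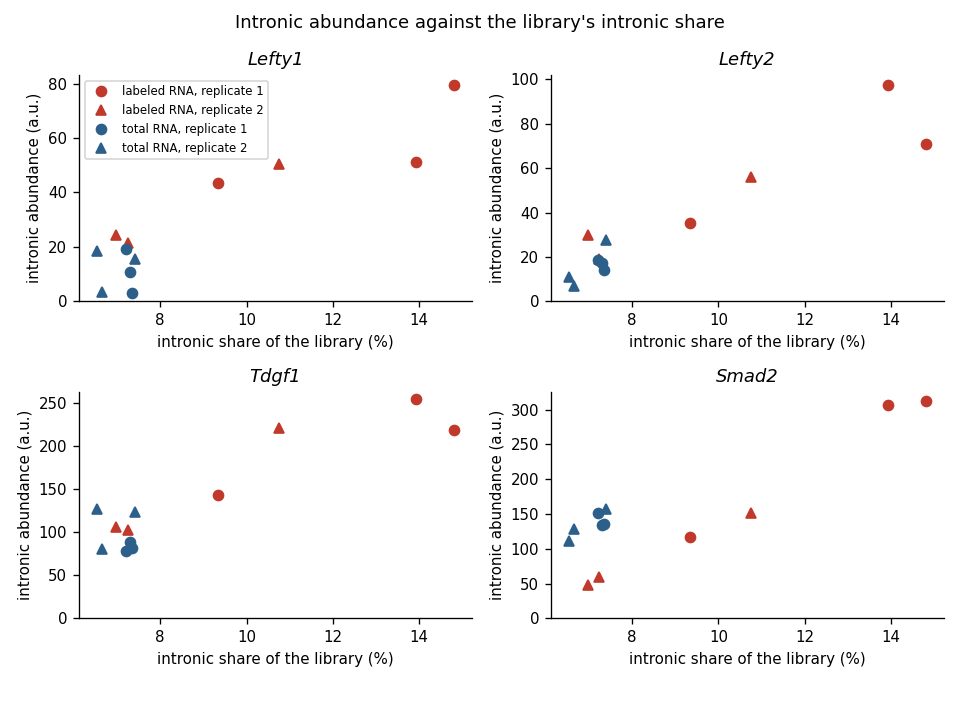
Intronic abundance (a.u.) of Lefty1, Lefty2, Tdgf1 and Smad2 against the share of each library's signal that lies in introns (%), with 1 point per library. In all 4 genes the highest value belongs to labeled 15 or 60 min replicate 1, the libraries with the highest share, while the 2 labeled libraries near 7% lie above total RNA for Lefty1 and below it for Smad2.

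The exon-to-intron ratio, a measure of how far a gene's RNA is spliced, had a median below zero in labeled against total RNA (10486 tested, median -0.64, 21.9% called, 21.6% lower and 0.248% higher, and 24.2% lower among the 7731 annotated genes). After quantile normalization the median was 0.02, with 540 genes called higher and 703 lower, against 26 and 2270. Lefty2 was the only member called, with a lower ratio in labeled RNA, a difference of -1.47 ± 0.50 (SE, adjusted p = 0.0488, limma, 0.00723 with the paired block and 0.0211 with the replicate number alone as a block). Its median ratio of exonic to intronic abundance was 4.02 in labeled and 8.89 in total libraries. Lefty1 had nearly the same difference, -1.46 ± 0.52 (SE, adjusted p = 0.0530, 0.0145 with the paired block and 0.0381 with the replicate number alone as a block), with medians of 3.73 and 7.96. In a fit of annotated genes alone the adjusted p was 0.0449 for Lefty1 and 0.0409 for Lefty2. Both, and Acvr2b, entered this comparison through their labeled introns, as above, which itself favours a lower labeled ratio. The Lefty2 call was lost with no filter (adjusted p = 0.0977) and with a pseudocount of 20 (-0.85, adjusted p = 0.0763). Both lost size after quantile normalization (-0.86 and -0.71, adjusted p = 0.125 and 0.169), and the Lefty2 call held in 3 of 12 fits that left out a library. Tdgf1 had the highest ratio of the members, with medians of 33.4 in labeled and 59.4 in total RNA, and a difference of -0.69 ± 0.34 (SE, adjusted p = 0.143). Acvr2b had the lowest, with medians of 1.64 and 2.68. Acvr2b, Smad2 and Skil did not pass (-0.69, -0.38 and -0.30), where the value of Skil rests mostly on the row of Skil-005. After quantile normalization the sign turned for Tdgf1 (0.13, adjusted p = 0.687), Smad2 (0.42, adjusted p = 0.347) and Skil (0.47, adjusted p = 0.0936), along with the shift of the median of all genes from -0.64 to 0.02. Without the labeled 15 and 60 min libraries numbered 1, none of the 6 members tested passed (Lefty2 -0.79, adjusted p = 0.218, and Lefty1 -1.03, adjusted p = 0.216). Without those numbered 2, all 6 passed, from Lefty1 at -2.07 (adjusted p = 0.00103) to Skil at -0.60 (adjusted p = 0.0382), in a fit that called 8258 genes lower, with a median of -1.04 over all genes.

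Labeling time was compared between 60 and 15 min to ask whether the transcripts shifted as the labeled pool aged. In labeled exons 0 of 25318 genes passed (252 at an unadjusted p under 0.05, limma), and in total exons 0 passed (176 unadjusted). For the change of the labeled-to-total difference 0 passed (229 unadjusted). Each unadjusted count is below the share of 0.05 that would be expected with no change. The counts are therefore no sign of a shift, and the lack of calls does not show that none occurred. In labeled RNA the members ranged from Nodal at -0.37 ± 0.53 to Lefty2 at 0.46 ± 0.40 (SE, adjusted p = 1 for each). In total RNA they ranged from Smad3 at -0.19 ± 0.39 to Nodal at 0.14 ± 0.53 (SE). The SE of the members in labeled RNA ran from 0.17 (Skil) to 0.53 (Nodal), so that differences of this size were not detectable with 2 libraries a group and this spread. All groups share a single estimate of the spread, so each member has the same SE in labeled and in total RNA. That estimate includes the labeled 15 and 60 min replicates, which resembled each other less than the replicates of total RNA did.

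Rates of synthesis, processing and degradation were derived per time and replicate and are given as a description with no test. Synthesis was labeled exonic abundance per hour of labeling, processing was synthesis over total intronic abundance, and degradation was synthesis over total exonic less total intronic abundance. Where introns are a small part, degradation is close to the labeled-to-total exonic ratio per hour. Its percentiles then largely restate the exonic differences above and are no separate evidence. Every library has the same sum, so synthesis falls with labeling time by construction, and for Tdgf1 it was 21026, 11394 and 5861 a.u. per hour at 15, 30 and 60 min. Percentiles among genes within a time and replicate avoid this. Tdgf1 lay between the 96.8 and 98.2 percentile for synthesis and between 91.1 and 98.1 for processing. Its degradation lay anywhere from 11.8 to 73.3.

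Skil and Smad2 were also made at high rates, 90.4 to 91.3 and 88.4 to 91.1, while their degradation percentiles were low to intermediate (medians 37.9 and 25.0). By the most abundant transcript, whose level does not grow with their number, Skil lay between 73.7 and 78.7 for synthesis and Smad2 between 66.9 and 78.2. The processing median of Skil was 34.5, but 1 row carried it: without the intronic row of Skil-005 the median was 76.9. There the exonic row of Skil-005 stayed in synthesis and the other genes kept all their rows, which raises this percentile. Nodal, Lefty1 and Lefty2 lay in the middle for synthesis, with medians of 57.4, 61.9 and 61.7. Their processing medians were 79.3, 78.9 and 73.5, and their degradation medians 82.2, 68.8 and 50.5. Lefty1 was the steadiest of the 3 for degradation (66.6 to 80.6), whereas Nodal ran from 10.3 to 92.3, with both extremes in the 60 min replicates. Acvr2b had low synthesis (12.3 to 25.6, and 3.30 to 12.8 by the leading transcript) and low processing (14.8 to 24.2). The synthesis median of Smad3 was 35.1 (26.3 to 60.0), and 7.90 by the leading transcript (1.96 to 53.2, the highest at 60 min replicate 2). Smad3 ran from 6.02 to 87.2 for degradation, so its place could not be resolved.

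**Figure D5:**
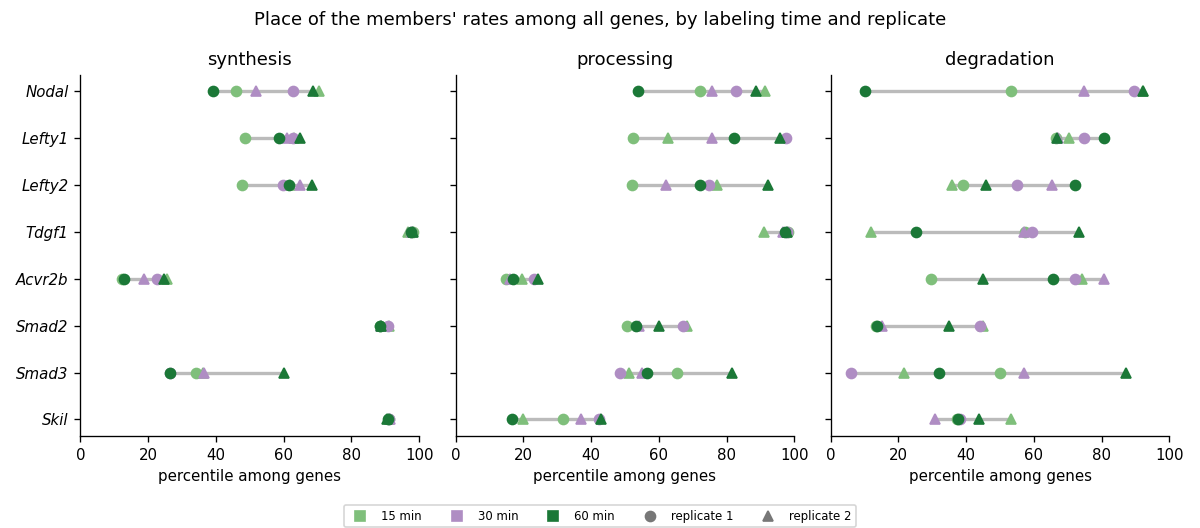
Percentile of each member's synthesis, processing and degradation rate among all genes with that rate (x axis, 0 to 100), with colour for labeling time, circles for replicate 1 and triangles for replicate 2, and a grey bar from the lowest to the highest of 6 values. Tdgf1 stays above 96 for synthesis and 91 for processing, and degradation percentiles spread most for Nodal and Smad3.

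The wider pathway was counted over a list of 40 genes by role, the 8 members included, of which all 40 had a row. Among 25 genes tested in exons 0 were called higher and 4 lower in labeled RNA (median -0.16, against -0.01 over all genes), namely Smad2, Skil, the ubiquitin ligase Smurf2 (-0.55 ± 0.15, SE, adjusted p = 0.0347) and the Smad phosphatase Ppm1a (-0.39 ± 0.11, SE, adjusted p = 0.0399). The background for lower calls was 9.49%, and without the members 2 of 17 listed genes were called lower. These counts, and the values of Smurf2 and Ppm1a, are from the fit without a block. With the paired block Skil and Smad2 lost their calls, and lower calls over all genes fell from 2402 to 1237. Among 21 genes tested in introns 7 were called higher and 0 lower (median 0.54, against 0.60 over all genes), a share close to the 28.4% of all genes called higher. Besides the Lefty pair these were the ligand Gdf3 (1.19 ± 0.30), the convertase Furin (0.97 ± 0.26), the repressors Tgif1 (1.02 ± 0.26) and Tgif2 (1.19 ± 0.31), and the receptor Acvr1c (0.76 ± 0.25, SE, adjusted p = 0.0366), whose exons had no value in any of the 12 libraries. Among 19 genes tested for the exon-to-intron ratio 3 were called lower, beside 21.6% of all genes, namely Lefty2, the Smad anchor Zfyve9 (-0.94 ± 0.28, SE, adjusted p = 0.0294) and Tgif2 (-1.26 ± 0.37, SE, adjusted p = 0.0274).

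Levels across the list were uneven. Tdgf1, with 1 transcript, had the highest abundance in total RNA. Tgif1, a homeodomain repressor of Smad targets, had the next highest sum over transcripts (3358, 4867 and 6112 a.u., lowest, median and highest of the total libraries), and the order by leading transcript was not tested. Gdf3, a ligand that also uses Cripto, had 162.8, 220.3 and 264.6 a.u., against 79.8, 88.4 and 137.0 a.u. for Nodal. Inhba and Acvr1c had no exonic value in any of the 12 libraries, although the introns of Acvr1c passed the filter. Of the 6 mesendoderm targets none reached a mean of 20 a.u.: Eomes was the most abundant, with 7.69 to 17.7 a.u. in total RNA, while Gsc, T and Foxa2 did not exceed 3.06 a.u. in any library. The nuclear partner Foxh1 had 9.29, 13.0 and 19.3 a.u. in total RNA, and the antagonists Cer1, Dand5 and Fst did not exceed 16.1 a.u. in any library.

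Across the 12 libraries the genes whose exonic pattern was most like Skil were Golph3 and Rab1 (Pearson's r = 0.992 for both), and for Smad2 they were Gm12612 (r = 0.969) and Ptbp1 (r = 0.966). For Nodal they were Rnd3 (r = 0.961) and Gm13080 (r = 0.960), and for Lefty1 they were Srp14 (r = 0.932) and Frs3 (r = 0.929). The nearest named gene was 1190002H23Rik for Lefty2 (r = 0.900), Fam160b2 for Tdgf1 (r = 0.923), Ncaph for Smad3 (r = 0.909) and Ptpn3 for Acvr2b (r = 0.898), and these 4 members also had a transcript without a GENCODE M1 gene among their 2 most similar features. These points share the labeled and total groups and each library's scaling, so the values describe likeness over 12 libraries and no more.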

How the data were processed

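Abundances were deposited by the authors for exonic and intronic rows of each transcript: 100-base single-end reads left after removal of rRNA reads were aligned with STAR 2.5.0 and quantified with RSEM, per the submitters' notes and methods. The deposited values are per length, sum to nearly the same total in each library (19988830 to 19992902) and hold only values above 1. Missing values were counted as 0. Depth per library cannot be read from them, and no counts were used. The labels name mm10, while transcripts were matched here to GENCODE M1 (mm9), since the table holds no coordinates. Genes were named through that annotation, and the 37582 of 121429 exonic rows it does not hold stayed single features in every fit and percentile. Strand was not given in the sources used here, and no annotated gene overlaps a member. The members and lists were chosen with earlier results of these data known.

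Values were summed per gene, filtered at a mean of 20 and tested on log2(value + 1) with limma 3.58.1 (R 4.3.3), with trend and Benjamini-Hochberg adjustment at 0.05, so fold changes of low genes are understated. In simulated data on 25318 genes for labeled against total exons, 42 of 100 genes changed by 1 (log2) and 83 of 100 changed by 2 were recovered, with 7 false calls. The simulated noise was independent and normal, with the same spread for a gene in all 12 libraries. Unequal labeled libraries and deviations shared by a library were not simulated, so the false calls do not measure the error in the real data. The labels number biological replicates 1 and 2, and the growth protocol makes these the parts of 1 divided culture, so equal numbers were taken to share a culture. At each time the gap between replicates 1 and 2 in labeled RNA was correlated across genes with that in total RNA, with r of -0.0359, 0.0746 and -0.236 at 15, 30 and 60 min. Named genes were the members and their transcripts, the listed genes that passed or had the highest or lowest total abundance, and the 2 features most like each member. The other genes of the list given by level, and the markers, were named after their values were seen. Alternatives were another pseudocount (20), no filter, quantile normalization, a replicate block (pairs of equal time and number, or the number alone), single transcripts, single times, no variance trend and left-out libraries. After the data were seen, synthesis by the leading transcript, Skil processing without the intronic row of Skil-005 and fits of annotated genes alone were added. The sequences of Smad2 and Smad3, and protein sequences, are not analysed here.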

Additional observations from a re-analysis of the deposited data

Results flagged for a closer look

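In 32 groups of 6 libraries (exons and introns of each member, labeled and total), 2 held a library far from the others, where chance gives about 1 in 20. Nodal exons in total RNA were highest in total 60 min replicate 1 (137.0 a.u., the others at or below 98.7). Smad3 exons in labeled RNA were highest in labeled 60 min replicate 2 (130.0 a.u., the others at or below 68.5), mostly from Smad3-004 (74.5 a.u.). That library also had the highest summed neural markers (215.8 a.u.) and embryonic stem cell markers (23544 a.u.) of all libraries. For the neural markers total 30 min replicate 1 was next (172.6 a.u.). For Lefty2 exons, both 15 min pairs had labeled below total and both 30 min pairs had labeled above it. The gap of 0.31 (log2) was not tested. At 60 min the pairs went both ways, with 0.84 in replicate 1 and -0.28 in replicate 2.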

How the results depend on the processing

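Called genes for labeled against total exons (4017) were 2442 with the paired replicate block, 7888 by single transcripts, 2353 over annotated genes alone (also chosen after seeing the data, with fewer features tested), and 0, 0 and 0 at 15, 30 and 60 min alone. For introns (3625) they were 6438 with no filter, and 0, 1 and 1 at single times. For the exon-to-intron ratio (2296) they were 1243 after quantile normalization. Leaving out the labeled 15 and 60 min libraries numbered 2, an alternative chosen after seeing the data, gave 7460, 10689 and 8327, and turned Smad2 introns to 0.65 (log2), below the median of 1.01 over all genes. Leaving out those numbered 1 gave 3796, 3953 and 1681. Leaving out a library or a replicate number gave 0 to 5479 calls in exons, 1381 to 6363 in introns and 295 to 5826 for the ratio. For 60 against 15 min the counts were 5 (labeled, no filter), 7 and 12 (total, pseudocount of 20 and no filter), and 3 and 12 for their difference, with 0 to 6, 0 to 9 and 0 to 6 over left-out libraries. Without replicate 1 or 2 no residual degrees of freedom remained for these. By the leading transcript, 0 neighbour pairs passed in total RNA in place of 5, where 4 pairs at the smallest possible p cannot pass. With either replicate number alone the exact test cannot fall below 0.25, and no count was made. The intronic calls of Lefty1 and Lefty2 were lost in the fits of 15, 30 or 60 min alone and kept in the other fits of summed rows. Single intronic rows of Lefty2 fell below the filter and were not tested. The paired block changed no call of a member beyond those given for Skil, Smad2, Tdgf1 and Lefty1, and the replicate number alone as a block none beyond Smad2 and Lefty1. The cause of these changes was not tested. In 60 comparisons of a member called in neither fit its sign changed.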
